A study of Mus musculus with 6 samples.

Results

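The genes described are 10 sensors and effectors of the unfolded protein response (UPR), chosen by name and matched by Ensembl identifier among 55414 genes of a count table from mouse Paneth cells (PCs). They form the IRE1 branch (Ern1, Ern2 and Xbp1), the ATF6 branch (Atf6) and the PERK branch (Eif2ak3, Atf4, Ddit3, Trib3, Ppp1r15a and Chac1). PCs of the small intestine, the secretory cells of the crypt base that make antimicrobial peptides, were purified with a cell sorter from C57BL/6J mice that were all labelled as lacking Ifnar1. Ifnar1 encodes a chain of the receptor for type I interferons, so the controls carried the same knockout, and no library of another genotype was analysed here. Of these mice, 3 were injected with PBS (control) and 3 with tumor necrosis factor (TNF), the intestine was taken 15 h later, and each library came from a different mouse. The comparison asked how UPR genes of PCs differ after TNF. The labels give neither the age and sex of the animals nor the dose.

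The UPR is the set of pathways by which a cell senses misfolded proteins in the endoplasmic reticulum (ER), the compartment where secreted proteins are folded. Its sensors, IRE1, PERK and ATF6, sit in the ER membrane. IRE1 is an RNase that cuts the Xbp1 mRNA so that it encodes an active transcription factor. PERK phosphorylates the translation factor eIF2α, which lowers protein synthesis while the transcription factor ATF4 is made, and ATF6 is cleaved in the Golgi to release a transcription factor. PCs make large amounts of secreted protein, and loss of Xbp1 from the intestinal epithelium is known to deplete them.

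All 10 genes passed the filter on low counts and none was at 0 in any library. Total counts ranged from 12747484 to 17039511 per library, and the 10 genes together held 0.0821% ± 0.00991 of them in PBS and 0.0520% ± 0.00689 in TNF (SD, n = 3). TNF replicate 1 stood apart from its group. Across 13026 tested genes its log2 CPM (counts scaled to equal library size) correlated at 0.937 to 0.945 with the PBS libraries but at 0.884 and 0.883 with TNF replicates 2 and 3, so values without it are given beside those with it. Because this library was singled out for its likeness to PBS, leaving it out tends to widen the difference between the groups. Adjusted p-values without it, and genes said to fall or rise there, are therefore descriptions and not independent tests. The PC label was checked on 10 PC markers (Lyz1, Mmp7, Mptx2, Ang4, Itln1, Clps, Cd24a, Kit, Defa24 and Defa30), which were counted in all libraries. They summed to 478890, 390569 and 437188 CPM in PBS replicates 1 to 3 and to 653957, 285315 and 457797 CPM in the TNF replicates. The sum was thus uneven within the TNF group, with TNF replicate 1 the highest library and TNF replicate 2 the lowest.

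The estimated level of all 10 genes was lower in TNF than in PBS, but with all 6 libraries none of the differences passed the threshold. With the quasi-likelihood test of edgeR, 0 of the 10 genes had an adjusted p under 5%, and neither did any other gene (0% of 13026). At an unadjusted p under 0.05 there were 4 of the 10 genes, Ern2, Xbp1, Atf6 and Chac1, where 4% of all tested genes were lower and 8.25% higher at that level. DESeq2 called 0 of the 10 genes (1.86% of all genes, 0.276% lower and 1.58% higher), and limma-voom with sample weights called 1, Ern2 (11.5% of all genes, 4.47% lower and 7.06% higher). The median log2 fold change of the 10 genes was -0.49, against 0.00 over all tested genes, of which 50% had a fold change below 0 (50.4% without TNF replicate 1). Without TNF replicate 1, Ern2 and Chac1 fell, that is 2 of 10 genes past 5% downward, where 5.40% of 13660 tested genes fell and 9.10% rose (14.5% in all). The TNF libraries lay below all PBS libraries for 5 of the 10 genes, Ern2, Xbp1, Atf6, Atf4 and Ppp1r15a, where 7.82% of tested genes showed this and 9.07% were higher without overlap (16.9% in all). In bulk RNA, fewer cells of a kind and less RNA per cell cannot be told apart.

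**Figure D1:**
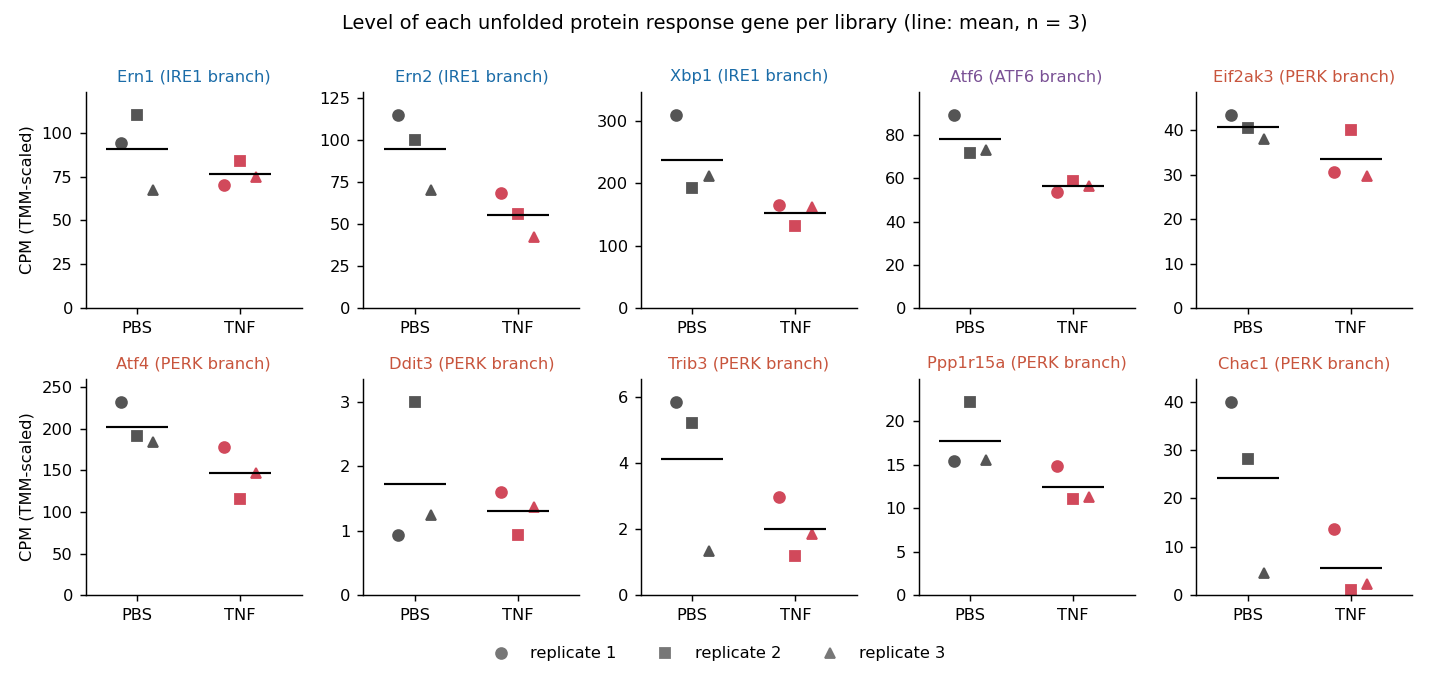
Level of each gene in CPM (TMM-scaled, linear axis from 0) in the 3 PBS and 3 TNF libraries. Marker shapes give the replicate number and lines the group mean. For Ern2, Xbp1, Atf6, Atf4 and Ppp1r15a the 3 TNF libraries lie below the 3 PBS libraries, and the PBS libraries of Chac1 spread from 4.48 to 39.9 CPM.

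The IRE1 branch was examined first. The enzyme comes in 2 forms from separate genes. Ern1 (ENSMUSG00000020715, chr11:106283818-106378686, minus strand) encodes IRE1α, which is made in most tissues, and Ern2 (ENSMUSG00000030866, chr7:121769116-121785468, minus strand) encodes IRE1β, whose expression is known from mucus-producing and other secretory epithelial cells. Ern1 had 94.1, 110 and 67.4 CPM in PBS replicates 1 to 3, against 70.2, 84.0 and 75.0 CPM in the TNF replicates. The groups overlapped, with PBS replicate 3 the lowest of all, with a log2 fold change of -0.24 by edgeR (SE 0.23, adjusted p 0.707). Ern2 had 115, 99.9 and 70.2 CPM in PBS, against 68.8, 55.8 and 42.4 CPM in TNF.

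All TNF libraries were thus below the lowest PBS library for Ern2, although TNF replicate 1 and PBS replicate 3 were close. The log2 fold change of Ern2 was -0.77 (SE 0.26, adjusted p 0.317). Without TNF replicate 1 it was -0.93 (SE 0.25) and passed the threshold (adjusted p 0.0286, against 0.0286 to 0.919 over all settings). Divided by the exon length of the annotation, the level of Ern2 was higher than that of Ern1 in each library. The ratio of Ern2 to Ern1 per kilobase was 4.12, 3.06 and 3.5 in PBS replicates 1 to 3, against 3.29, 2.23 and 1.90 in the TNF replicates. TNF replicates 2 and 3 had the lowest ratios, while TNF replicate 1 lay within the PBS range.

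Because IRE1β is also known as a goblet cell product, goblet cell markers are given beside Ern2. The list of 7 markers (Muc2, Clca1, Fcgbp, Tff3, Zg16, Spink4 and Klk1) summed to 10961 to 11936 CPM in PBS and to 14072, 6952 and 10171 CPM in TNF replicates 1 to 3. Of the markers 5 of 7 were lower in TNF by estimate, none was at 0, and 5 of 7 fell without TNF replicate 1, where 5.40% of all tested genes did. Most of the sum was Spink4, at 10921 CPM of it in TNF replicate 1. The markers did not move together in that library, where Muc2 (888 CPM, against 1110 to 1860 CPM in PBS) and Klk1 (71.2 CPM, against 99.8 to 156 CPM) lay below the PBS libraries and Clca1 (302 CPM, against 32.0 to 66.3 CPM) and Tff3 (1463 CPM, against 1051 to 1185 CPM) above them. Without TNF replicate 1 the estimate was lower for 6 of 7 markers and higher for 1, Muc2 (log2 fold change 0.46, edgeR adjusted p 0.402). Muc2 had 2580 and 1440 CPM in TNF replicates 2 and 3, the first above all PBS libraries. The part of goblet cell transcripts in the Ern2 difference was not tested.

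Xbp1 (ENSMUSG00000020484, chr11:5470606-5483027, plus strand), the target of IRE1, had 309, 193 and 211 CPM in PBS replicates 1 to 3. In TNF it had 165, 131 and 162 CPM, all below the lowest PBS library. The log2 fold change was -0.64 (SE 0.26, adjusted p 0.368) and changed little without TNF replicate 1 (-0.68, adjusted p 0.108, against 0.108 to 0.919 over all settings). PBS replicate 1 was the highest library, and without it the log2 fold change was -0.40. Of the exon bases of Xbp1, 22% also lie in exons of Ccdc117 on the opposite strand, and whether the counts used strand is not given in the sources used here.

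IRE1 acts on Xbp1 after transcription, by removing a short segment from the coding part of the mRNA. The segment is shown in capitals below, in the unprocessed sequence of the GRCm39 annotation (chr11:5474255-5474328, plus strand, exonic in 19 of 24 annotated transcripts), beside the joined product. It is 26 bases long, at chr11:5474279-5474304, and both of its ends lie within the letters CNGCNG at which IRE1 is known to cut.
Xbp1 unprocessed: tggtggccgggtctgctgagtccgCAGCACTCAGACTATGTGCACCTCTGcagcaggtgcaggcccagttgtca
Xbp1 processed: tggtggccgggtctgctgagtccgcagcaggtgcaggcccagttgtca
The processed form reads on in another frame and encodes the active factor. A count per gene adds both forms together, so the Xbp1 values above hold the amount of the transcript and not how much of it was processed. The pattern was met at 1 further place near the 5′ end of the gene, which is not the known site.

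The ATF6 branch was represented by its sensor alone. Atf6 (ENSMUSG00000026663, chr1:170532026-170696208, minus strand) had 89.2, 71.5 and 73.3 CPM in PBS replicates 1 to 3, against 53.6, 58.9 and 56.5 CPM in the TNF replicates. The groups did not overlap, and TNF replicate 1 was the lowest library although it stood near the PBS libraries over all genes. Atf6 had the narrowest TNF spread in CPM relative to its mean of the 10 genes (56.4 ± 2.67). The log2 fold change was -0.47 (SE 0.19, adjusted p 0.379) with all libraries and -0.41 without TNF replicate 1 (adjusted p 0.195, against 0.132 to 0.919 over all settings).

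Genes that act on ATF6 or beside it were read from a list of 20 partners of the UPR sensors. Atf6b, the paralog of Atf6, had 65.1, 39.4 and 38.4 CPM in PBS, against 29.5, 29.5 and 22.1 CPM in TNF, again without overlap (fold change -0.82 on the log2 scale, SE 0.26, adjusted p 0.297). Mbtps1, the gene of the site-1 protease that makes the first cut in ATF6, had 58.3, 59.3 and 59.1 CPM in PBS but 45.1, 30.1 and 33.3 CPM in TNF. Its log2 fold change was -0.71 (SE 0.21, adjusted p 0.288), and it fell without TNF replicate 1 (-0.88). Mbtps2, the gene of the site-2 protease that makes the next cut, did not share this, at 17, 15.3 and 14.5 CPM in PBS, against 11.1, 16.8 and 24 CPM in TNF. Nfya, a subunit of the NF-Y factor that binds DNA together with ATF6, had a log2 fold change of -1.03 (SE 0.31, adjusted p 0.293) and also fell without TNF replicate 1 (-1.31).

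In the PERK branch the estimated log2 fold changes ranged from -0.28 for the sensor to -2.11 for the effector Chac1. Eif2ak3 (ENSMUSG00000031668, chr6:70821461-70882235, plus strand), the gene of PERK, had 43.4, 40.5 and 38.1 CPM in PBS replicates 1 to 3, against 30.5, 40.1 and 29.7 CPM in the TNF replicates. TNF replicate 2 lay within the PBS range, and the log2 fold change was -0.28 (SE 0.20, adjusted p 0.602). Atf4 (ENSMUSG00000042406, chr15:80139372-80141745, plus strand), the transcription factor of the branch, had 232, 191 and 184 CPM in PBS, against 178, 116 and 147 CPM in TNF. The groups did not overlap, but TNF replicate 1 lay just under the PBS libraries (fold change -0.46 on the log2 scale, SE 0.24, adjusted p 0.472). ATF4 is controlled mainly at translation, which RNA counts do not measure.

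Ppp1r15a (ENSMUSG00000040435, chr7:45172340-45175692, minus strand) encodes GADD34, which directs a phosphatase to eIF2α and so ends the PERK signal. It had 15.4, 22.2 and 15.6 CPM in PBS, against 14.8, 11.1 and 11.3 CPM in TNF. The groups did not overlap, by a margin of less than 1 CPM, and the log2 fold change was -0.52 (SE 0.25, adjusted p 0.439). Ppp1r15b, its constitutive counterpart, had 200, 167 and 179 CPM in PBS, against 146, 176 and 170 CPM in TNF, with a log2 fold change of -0.15 (SE 0.21, adjusted p 0.808). The ratio of Ppp1r15b to Ppp1r15a per kilobase was 3.94 to 6.78 in PBS and 5.16 to 8.34 in TNF, so the groups overlapped.

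The late effectors are Ddit3, Trib3 and Chac1. Ddit3 (ENSMUSG00000025408, chr10:127124268-127132163, plus strand), the gene of the pro-apoptotic factor CHOP, was near the lower limit of counting, with 13, 45 and 17 reads in PBS replicates 1 to 3, against 19, 19 and 17 reads in the TNF replicates. In CPM these were 0.938, 3.00 and 1.25 in PBS and 1.61, 0.929 and 1.37 in TNF, and PBS replicate 2 was the highest library. The log2 fold change of -0.42 (SE 0.66, adjusted p 0.830) turned to 0.24 without PBS replicate 2, so no direction can be given. Of its exon bases 82.4% also lie in exons of other genes, mostly Mars1 and Mbd6 on the opposite strand, and a further identifier with the symbol Ddit3 was at 0 reads in all libraries, so the level of Ddit3 is uncertain.

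Trib3 (ENSMUSG00000032715, chr2:152179337-152191958, minus strand), a pseudokinase gene induced by ATF4 and CHOP, had 5.84, 5.21 and 1.32 CPM in PBS, against 2.97, 1.17 and 1.85 CPM in TNF. PBS replicate 3 lay among the TNF libraries, and the log2 fold change was -1.06 (SE 0.63, adjusted p 0.521). Chac1 (ENSMUSG00000027313, chr2:119180757-119184866, plus strand), which encodes an enzyme that breaks down glutathione and is a late target of ATF4, had 39.9, 28.1 and 4.48 CPM in PBS, against 13.6, 1.13 and 2.34 CPM in TNF.

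Chac1 showed the largest estimated difference of the 10 genes, with a log2 fold change of -2.11 (SE 0.93, adjusted p 0.402), and 0.230% of all tested genes had a lower one. It also had the widest spread, since PBS replicate 3 was below TNF replicate 1. Without TNF replicate 1 Chac1 fell with a log2 fold change of -3.83 (SE 0.78, adjusted p 0.00761, against 9.93e-08 to 0.920 over all settings). Without PBS replicate 1 it was -1.54. The libraries low in Chac1 were also low in Trib3. PBS replicate 3 and TNF replicates 2 and 3 had 4.48 CPM of Chac1 or less and 1.85 CPM of Trib3 or less, whereas the other 3 libraries had 13.6 CPM of Chac1 or more and 2.97 CPM of Trib3 or more. This ordering does not follow the treatment groups, and the labels name no factor that separates these libraries.

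Chac1 and Trib3 also shared a promoter feature that the choice of genes did not use. RefSeq promoter windows, from 250 bases before to 50 bases after a RefSeq start site, were matched by symbol for 8 of the 10 genes. That site can lie inside the gene as annotated here, as it does for Trib3. They were searched on both strands for the C/EBP-ATF response element (CARE, TGATGNAA), which ATF4 is known to bind, and for ER stress elements of ATF6 and XBP1 (ERSE, the letters CCAAT and CCACG with 9 bases between them, ERSE-II, the letters ATTGG and CCACG with 1 base between them, and UPRE, TGACGTGG). The CARE letters were met in 2 of the 8 windows, those of Chac1 and Trib3, and in 3.91% of 32544 windows of all genes. The other motifs were met in none of the 8 windows, and in 0.12% (ERSE), 0.0369% (ERSE-II) and 0.682% (UPRE) of all windows. Further genes of the lists described below were searched for comparison. The windows of Asns and Herpud1 also held the CARE letters, so these were not particular to Chac1 and Trib3. The log2 fold changes of Asns and Herpud1 were -0.24 and -0.34. Herpud1 held an ERSE-II besides, and Bhlha15 held none of the motifs. The windows of Chac1 and Trib3 are shown with the fixed letters of the motif in capitals, beside those of Hspa5 and Derl3, genes of the ATF6 and XBP1 lists described further on, which hold an ERSE. All are 5′ to 3′ on the strand of the gene, from RefSeq (GRCm38.p6), with positions found by exact match in GRCm39.
Chac1 (chr2:119181473-119181772, plus strand): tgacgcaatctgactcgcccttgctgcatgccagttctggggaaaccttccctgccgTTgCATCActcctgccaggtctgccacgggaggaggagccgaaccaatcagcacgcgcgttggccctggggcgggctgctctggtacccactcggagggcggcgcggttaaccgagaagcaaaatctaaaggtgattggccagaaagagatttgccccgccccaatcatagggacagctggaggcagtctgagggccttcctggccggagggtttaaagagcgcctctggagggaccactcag
Trib3 (chr2:152185931-152186230, minus strand): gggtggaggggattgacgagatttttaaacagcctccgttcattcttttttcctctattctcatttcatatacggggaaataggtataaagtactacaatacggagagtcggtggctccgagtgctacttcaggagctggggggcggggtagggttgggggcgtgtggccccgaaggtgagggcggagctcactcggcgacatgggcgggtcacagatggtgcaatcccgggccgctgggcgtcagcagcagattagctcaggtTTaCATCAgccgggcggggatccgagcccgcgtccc
Hspa5 (chr2:34661852-34662151, plus strand): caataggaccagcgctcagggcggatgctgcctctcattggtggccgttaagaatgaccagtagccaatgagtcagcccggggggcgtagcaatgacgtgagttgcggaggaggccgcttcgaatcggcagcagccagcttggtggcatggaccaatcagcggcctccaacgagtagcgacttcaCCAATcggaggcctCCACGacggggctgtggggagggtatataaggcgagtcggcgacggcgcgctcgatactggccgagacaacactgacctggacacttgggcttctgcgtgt
Derl3 (chr10:75728982-75729281, plus strand): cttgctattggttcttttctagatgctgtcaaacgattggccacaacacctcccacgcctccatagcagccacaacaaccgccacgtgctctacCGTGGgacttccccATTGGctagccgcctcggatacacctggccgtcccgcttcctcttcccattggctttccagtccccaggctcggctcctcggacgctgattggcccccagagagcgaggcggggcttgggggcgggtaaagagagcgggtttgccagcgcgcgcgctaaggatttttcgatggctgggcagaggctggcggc
With the RefSeq start site of the window at position 0, the CARE lay at -193 to -186 in Chac1 and at 14 to 21 in Trib3. In both it was on the opposite strand. The ERSE lay at -65 to -47 in Hspa5 and at -156 to -138 in Derl3. A match describes the letters of the window and is not evidence of binding in these cells.

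**Figure D2:**
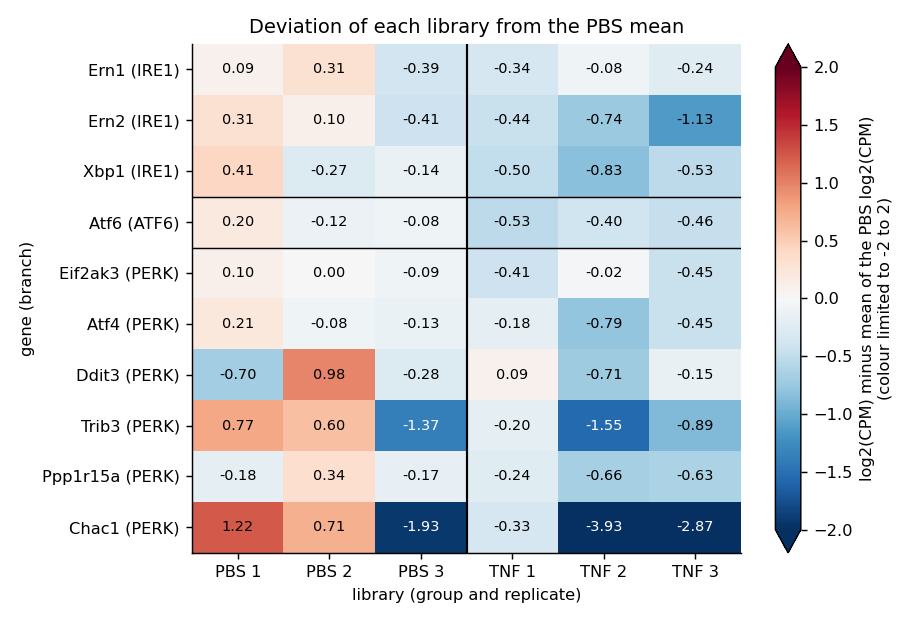
Deviation of each library (columns) from the mean of the PBS libraries for each gene (rows, with the branch), in log2 CPM. Blue is lower and red is higher, and the colour ends at -2 and 2. Atf6 and Xbp1 are lower in all 3 TNF libraries at -0.40 or below, while Chac1 runs from 1.22 in PBS replicate 1 to -3.93 in TNF replicate 2.

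The branches were compared by their medians, which are descriptions because the genes of a branch are not replicates. The median log2 fold change was -0.64 in the IRE1 branch (3 genes), -0.47 in the ATF6 branch (1 gene) and -0.49 in the PERK branch (6 genes). Without TNF replicate 1 the medians were -0.68, -0.41 and -0.62, in the same order. Without PBS replicate 1 the order changed, with -0.40 for IRE1, -0.36 for ATF6 and -0.66 for PERK. PERK also came first with sample weights (-0.53, against -0.50 for IRE1 and -0.39 for ATF6). Leaving out PBS replicate 2 kept IRE1 first (-0.74) but put ATF6 (-0.53) ahead of PERK (-0.42). ATF6 likewise passed PERK when TNF replicate 2 was dropped (-0.53 against -0.47). Dropping TNF replicate 3 had the same effect by a narrow margin (-0.47 against -0.46). The order of the branches was thus not stable. Within branches the genes differed more than the branches did. The IRE1 branch ran from -0.77 (Ern2) to -0.24 (Ern1) and the PERK branch from -2.11 (Chac1) to -0.28 (Eif2ak3). The transcripts of the broadly expressed sensor enzymes, Ern1 and Eif2ak3, had the smallest estimated differences of the 10 genes, and both groups of libraries overlapped for each of them.

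TNF replicate 1 took an intermediate place in these genes. Its median deviation from the PBS mean over the 10 genes was -0.34 in log2 CPM with a prior count of 2, between PBS libraries at -0.22 to 0.20 and TNF replicates 2 and 3 at -0.70 and -0.49. It was close to the other TNF libraries for Atf6 (-0.53, against -0.40 and -0.46) and Xbp1 (-0.50, against -0.83 and -0.53). It was nearer to the PBS libraries for Chac1 (-0.33, against -3.93 and -2.87) and Atf4 (-0.18, against -0.79 and -0.45).

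**Figure D3:**
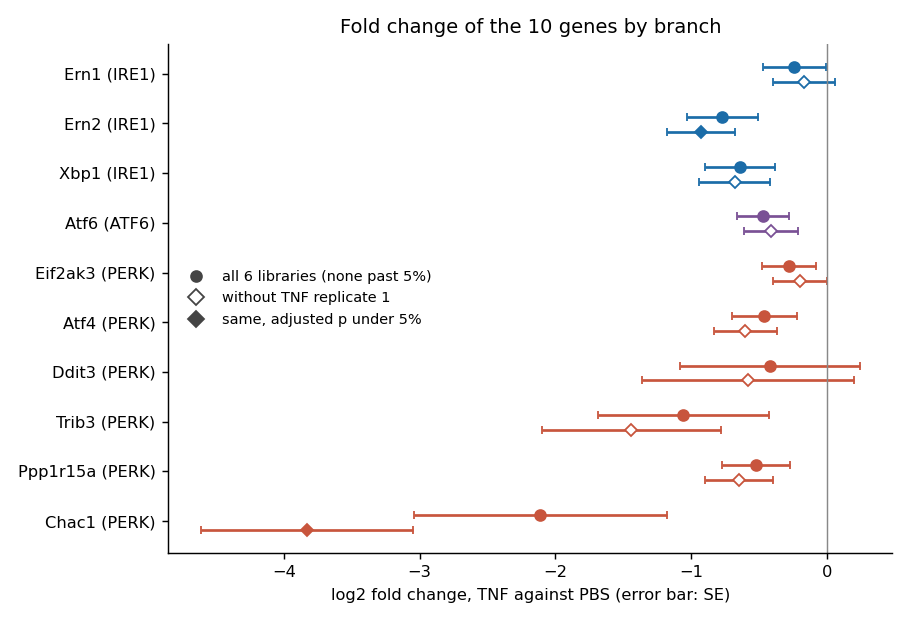
Log2 fold change of TNF against PBS with its SE for each gene, coloured by branch, with all 6 libraries (circles) and without TNF replicate 1 (diamonds, filled where the edgeR adjusted p was under 5%). All estimates lie below 0, and only Ern2 and Chac1 have filled diamonds.

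Levels of the genes were compared per kilobase of annotated exon sequence. In PBS, Atf4 was highest at 85.1 ± 11 CPM per kilobase (SD, n = 3). Xbp1 (34.3 ± 8.97) and Ern2 (31.7 ± 7.63) came next and did not differ beyond their spread. Chac1 (9.31 ± 6.95), Ern1 (8.97 ± 2.13), Atf6 (7.96 ± 0.998), Eif2ak3 (6.40 ± 0.417) and Ppp1r15a (6.03 ± 1.31) formed a middle set in which each gene lay within the spread of the one before or after it, followed by Trib3 (1.22 ± 0.722) and Ddit3 (0.310 ± 0.200). In TNF the first 3 places were the same, at 61.9 ± 13 for Atf4, 22 ± 2.72 for Xbp1 and 18.5 ± 4.38 for Ern2. Chac1 moved from the upper end of the middle set to 2.19 ± 2.65, below Ppp1r15a at 4.21 ± 0.713. The lengths take in the exons of all annotated transcripts of a gene, which lowers the value of genes with many of them, such as Xbp1.

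Target genes of each branch were then described from lists written from general knowledge. The 36 XBP1 targets cover ER folding, translocation, export and degradation, and 31 of them were lower in TNF by estimate, with a median log2 fold change of -0.51. The 14 ATF6 targets, mainly ER chaperones, had 12 lower and a median of -0.64. With all 6 libraries edgeR called 0 genes of either list, DESeq2 called 2 XBP1 targets and 1 ATF6 target lower (0.276% of all genes), and 11 and 6 genes were lower at an unadjusted p under 0.05 (4% of all genes). Without TNF replicate 1, 14 of 36 XBP1 targets and 9 of 14 ATF6 targets fell and 0 rose, where 5.40% of all tested genes fell and 9.10% rose.

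Among the ATF6 targets, Hspa5, the gene of the ER chaperone BiP that holds the sensors inactive, had 993, 809 and 794 CPM in PBS, against 752, 441 and 447 CPM in TNF (fold change -0.66 on the log2 scale, SE 0.30, adjusted p 0.425). The groups did not overlap, and Hspa5 fell without TNF replicate 1 (-0.94). Hsp90b1, the gene of the chaperone GRP94, had 417, 306 and 336 CPM in PBS, against 239, 219 and 143 CPM in TNF, likewise without overlap (-0.82, SE 0.27, adjusted p 0.311). Hyou1, a further ER chaperone gene, showed the largest difference of the list (-1.06, SE 0.31, adjusted p 0.278) and was the ATF6 target that DESeq2 called. Slc33a1 (-0.83), Sdf2l1, Pdia4 and Creld2 also fell without TNF replicate 1 (the last 3 by -1.13, -1.26 and -1.44), whereas Herpud1 (-0.49) and Manf (-0.31) did not pass.

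Among the XBP1 targets, Derl3, a component of ER-associated degradation, had 12.1, 4.74 and 3.75 CPM in PBS, against 1.70, 0.587 and 1.69 CPM in TNF (fold change -2.39 on the log2 scale, SE 0.61, adjusted p 0.270). Sec24d, a coat protein of the vesicles that leave the ER, had 170, 105 and 122 CPM in PBS, against 80.4, 48.0 and 58.1 CPM in TNF (-1.09, SE 0.28, adjusted p 0.270). These 2 genes were the XBP1 targets that DESeq2 called, and neither overlapped between groups. Ero1b, the gene of an ER oxidase, did not overlap either (-0.98, SE 0.27, adjusted p 0.278). Bhlha15, the gene of the secretory cell factor MIST1, had 184, 97.8 and 99.3 CPM in PBS, against 114, 32.5 and 28.6 CPM in TNF, and fell without TNF replicate 1 (-2.03). Dnajb9, a cochaperone gene and sensitive XBP1 target, was as high in TNF replicate 1 (138 CPM) as in PBS (111 to 126 CPM) but 51.1 and 70.0 CPM in TNF replicates 2 and 3, and fell without TNF replicate 1 (-0.95). Edem1 had a log2 fold change of -0.63 (SE 0.26, adjusted p 0.380) and Agr2, a protein disulfide isomerase gene of mucin-secreting cells, of -0.20 (SE 0.35, adjusted p 0.853).

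The ATF4 and CHOP targets were divided in their direction. All PERK branch genes were lower by estimate, but Trib3 and Chac1 among them are themselves targets of ATF4, and no direction can be given for Ddit3. Of 38 genes 36 were tested, 18 were higher and 18 lower in TNF, and the median log2 fold change was 0.00. Without TNF replicate 1, 7 of 37 tested genes rose and 7 fell, where 9.10% and 5.40% of all genes did so. Atf5, a transcription factor of the same response, had 7.14, 4.81 and 5.14 CPM in PBS, against 7.99, 19.4 and 21.3 CPM in TNF (1.51, SE 0.38, adjusted p 0.270), with no overlap. Ero1a, which encodes an ER oxidase, was at 24.4 CPM in TNF replicate 1, below PBS at 30.4 to 36.2 CPM, but at 140 and 109 CPM in TNF replicates 2 and 3, and rose without TNF replicate 1 (1.91). Slc7a5, a carrier of large neutral amino acids, was lower in each TNF library (21.3 to 26.4 CPM) than in any PBS library (30.1 to 59.2 CPM), with a log2 fold change of -0.87 (SE 0.27, adjusted p 0.295). Asns, the asparagine synthetase gene and a standard readout of ATF4, had a log2 fold change of -0.24 (SE 0.27, adjusted p 0.761), Atf3 of -0.22 (SE 0.54, adjusted p 0.896) and Cebpb of 0.83 (SE 0.36, adjusted p 0.398).

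**Figure D4:**
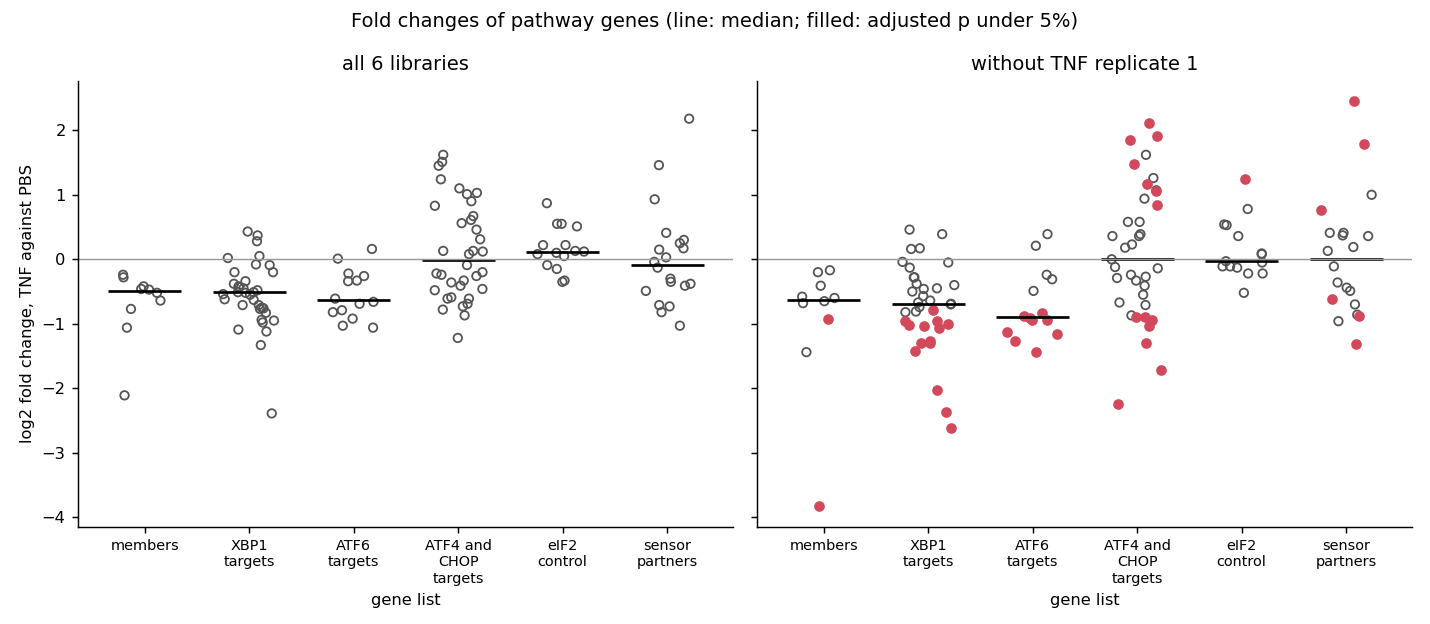
Log2 fold changes of TNF against PBS for the 10 genes and 5 lists of related genes, with all 6 libraries (left) and without TNF replicate 1 (right). Each point is a gene, lines are medians and filled points had an edgeR adjusted p under 5%. The XBP1 and ATF6 targets lie mostly below 0, the ATF4 and CHOP targets spread to both sides, and filled points occur only without TNF replicate 1.

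The control of eIF2 has other inputs than PERK, and these genes were described beside it. Of 15 genes 11 were higher and 4 lower by estimate with all libraries, with a median log2 fold change of 0.12, but 7 were higher and 8 lower without TNF replicate 1, with a median of -0.03. Eif2ak2, the gene of the double-stranded RNA sensor PKR, had 10.6, 14.5 and 15.9 CPM in PBS, against 10.5, 39.3 and 24.6 CPM in TNF (0.87, SE 0.42, adjusted p 0.437), and was the 1 gene of the list that rose without TNF replicate 1 (1.25), where 9.10% of all tested genes rose. Eif2ak1 (HRI) and Eif2ak4 (GCN2), the kinases of heme and amino acid shortage, had log2 fold changes of 0.22 (SE 0.24) and -0.35 (SE 0.30). Eif2s2, a subunit of eIF2, and Eif2b1, a subunit of its exchange factor, were higher in the TNF libraries without overlap, at 0.55 (SE 0.21, adjusted p 0.344) and 0.51 (SE 0.21, adjusted p 0.372), and Eif2b2 overlapped (0.55, SE 0.32, adjusted p 0.507). In the list of sensor partners 9 of 20 genes were higher and 11 lower, and without TNF replicate 1 Bax, Bak1 and Creb3l3 rose while Mbtps1, Nfya and Erlec1 fell, that is 3 of 20 in each direction, where 9.10% of all tested genes rose and 5.40% fell. Rtcb, the ligase that joins the cut Xbp1 mRNA, had a log2 fold change of 0.25 (SE 0.26, adjusted p 0.729). Bloc1s1, a known mRNA substrate of IRE1, had 14 reads or fewer per library and shares 73.2% of its exon bases with Rdh5, so its level cannot be read from these counts.

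Markers of other cells and of handling were summed beside these genes. By estimate 6 of 10 PC markers, 5 of 5 stem cell, 5 of 5 tuft cell, 2 of 5 enteroendocrine, 3 of 3 tested enterocyte and 1 of 3 tested immune cell markers were lower. Without TNF replicate 1 there fell 1 of 10 PC, 3 of 5 stem cell and 3 of 5 enterocyte markers tested in that fit, where 5.40% of all tested genes fell. Stem cell markers summed to 2166 to 2663 CPM in PBS and to 4159, 390 and 407 CPM in TNF replicates 1 to 3. Most of this sum was Olfm4, with 1925 to 2374 CPM per PBS library, against 3887, 233 and 272 CPM in the TNF replicates. Without TNF replicate 1, Olfm4, Ascl2 and Smoc2 fell, whereas Axin2 (log2 fold change -0.78) and Lgr5 (-0.25, edgeR adjusted p 0.571) did not pass. Lgr5 overlapped between the groups, at 54 to 76.8 CPM in PBS, against 69, 68.3 and 42.2 CPM in the TNF replicates. Tuft cell markers summed to 333 to 1198 CPM in PBS and 412 to 734 CPM in TNF, enteroendocrine markers to 23.9 to 70.5 and 21.4 to 83.8 CPM, enterocyte markers to 24.7 to 42.6 and 9.69 to 13 CPM, and immune cell markers to 22 to 54.1 and 35.6 to 45.2 CPM. Genes of cell dissociation and heat shock, some of which are induced together with Ppp1r15a and Atf3 under stress, summed to 387 to 770 CPM in PBS and 414 to 688 CPM in TNF. PBS replicate 2 was highest in this sum and also in Ppp1r15a and Ddit3. Of the 13 tested genes of this list, 5 were higher and 8 lower in TNF by estimate. Hspa1b, Dnajb1 and Ier3 were higher without overlap (log2 fold changes 2.62, 0.68 and 1.21, edgeR adjusted p 0.27, 0.297 and 0.402). Hspa1b had 5 to 18 reads in PBS and 22 to 114 reads in TNF, and DESeq2 called it. Dnajb1 had 20.6 to 30.6 CPM in PBS and 38.2 to 45.3 CPM in TNF. It rose without TNF replicate 1 (0.77), where 1 gene of the list fell. No marker was at 0 in all libraries. The lymphocyte markers Cd3e and Cd79a were at 0 in 4 and 5 of the 6 libraries, and the enterocyte markers Apoa1, Apoa4 and Alpi were at 0 in TNF replicate 3, Neurog3 in TNF replicate 2, and Cck, Il25 and Hspa1a in PBS replicate 1. The part of these cells in the UPR values was not tested.

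The genes with the most similar profile were looked up for 1 gene of each branch, by the root mean square (RMS) difference of log2 CPM, centred on the mean of each gene, over the 6 libraries. Among 9766 genes the nearest to Xbp1 were Pdk2, Ptov1, Prrc1, Cxxc5 and Cad, at RMS differences of 0.0494 to 0.0953, where the spread of Xbp1 itself was 0.387. The nearest to Atf6 were Kmt5c, Cgref1, Tex2, Usp9x and Zbtb7b (0.0375 to 0.0741, own spread 0.255). None of these is in the lists of UPR targets. The nearest to Ddit3 were Mapk8ip3, Dpm1, Snapc3, Snrnp70 and 2210408I21Rik, with larger differences of 0.138 to 0.172 and an own spread of 0.527. These genes, like Ddit3, were highest in PBS replicate 2, which follows from how they were picked and is not a separate result.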

How the data were processed

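RNA-seq counts were analysed from 3 PBS and 3 TNF libraries of sorted PCs, grouped by the sample labels. The deposited values were raw counts per Ensembl gene. Per the labels, reads were single-end from an AVITI instrument, and the submitters' processing notes name FastQC, Trimmomatic 0.39, STAR 2.7.10a, DESeq2 and mm39. The annotation release, counting settings and strand use were not given in the sources used here. Symbols, positions and exon lengths came from GENCODE vM39 (GRCm39, the build called mm39), and 54749 of 55414 identifiers matched.

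The filterByExpr rule at a minimum count of 10 and a minimum total of 15 left 13026 genes. Libraries were scaled by trimmed mean of M-values (TMM), and TNF was compared with PBS by the two-sided quasi-likelihood test of edgeR 4.0.16 (R 4.3.3), with Benjamini-Hochberg adjustment over all tested genes and a threshold of 5%. The SE was taken as the size of the log2 fold change over the root of its F statistic. CPM are on TMM-scaled library sizes. Profiles used log2 CPM with a prior count of 2. The limit set by a count of 0 (3 counts) lay between 0.147 and 0.255 CPM, for counting error only. Scripts were tested on simulated data.

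Alternatives were other scaling factors, no filter, leaving out each library, a replicate block, DESeq2 1.42.0 and limma-voom with sample weights (limma 3.58.1). The genes, lists, tests and alternatives were chosen with earlier results of these data known. Named genes were the 10 members, 22 genes named for their role, up to 3 further genes per list by the smallest p, and the 5 nearest profiles of Xbp1, Atf6 and Ddit3. Others were named after their values were seen, namely Bak1, Erlec1, some cell type markers such as Olfm4 and Lgr5, the genes of the closing observations and the genes that share exons.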

Additional observations from a re-analysis of the deposited data

How the results depend on the processing

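Of 130 recomputed log2 fold changes of the 10 genes (13 alternatives each), 125 kept their direction and their side of the 5% threshold and 4 passed it anew. The latter were Ern2 with sample weights (-0.79), Chac1 with no low-count filter (-2.14), and both without TNF replicate 1. The other changed sign, Ddit3 at 0.24 without PBS replicate 2, in a range of -0.71 to 0.24 when 1 library was left out. Branch medians moved by less than the spread between replicates under all alternatives.

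Counts of genes past 5%, which were 0 with all libraries, depended on the tool, the filter and TNF replicate 1. Over all tested genes there were 690 of 23434 with no low-count filter, 242 of 13026 with DESeq2 (1.86%) and 1501 of 13026 with sample weights (11.5%). When 1 library was left out there were 0 to 1980, the highest without TNF replicate 1 (14.5% of 13660). For the 10 genes there was 1 with no filter, 1 with sample weights and 0 to 2 with a library left out. In the same order of no filter, DESeq2, sample weights and a library left out, the counts were 7, 2, 11 and 0 to 14 for XBP1 targets, 3, 1, 7 and 0 to 9 for ATF6 targets, 6, 1, 12 and 0 to 14 for ATF4 and CHOP targets, and 2, 1, 4 and 0 to 6 for sensor partners. For eIF2 control there was 1 with sample weights and 0 to 1 with a library left out. The cause was not tested.

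No pairing by replicate number was seen, as deviations of same-numbered libraries correlated across genes at -0.013, -0.075 and 0.031. Such values cannot exclude a weak pairing with 3 libraries per group. The count of genes past 5% stayed at 0 with the replicate block. Scaled to total counts alone, the median over all genes was -0.11, and all 10 genes stayed lower under each scaling.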

Other observations

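Within the ATF4 and CHOP list, 14 genes passed the threshold without TNF replicate 1, of which 7 rose and 7 fell (9.10% and 5.40% of all tested genes). Those given here were picked out with their values already known. Psat1 and Phgdh, enzymes of serine synthesis, rose (log2 fold changes 0.84 and 1.16), and TNF replicates 2 and 3 had 40.2 and 41.8 CPM of Phgdh against 10.7 to 24.5 CPM in PBS. Cth and Cbs, which make cysteine from homocysteine, fell (-1.71 and -2.25), as did Mthfd2 of mitochondrial folate metabolism (-1.30). Of the aminoacyl-tRNA synthetase genes, which charge tRNAs with amino acids, Tars1, Eprs1 and Iars1 fell (-0.89, -0.90 and -1.03), while Aars1, Gars1, Nars1, Sars1, Wars1, Mars1 and Yars1 did not pass. Nupr1, a stress-induced nuclear protein, had 188 to 289 CPM in PBS, 156 CPM in TNF replicate 1 and 975 and 925 CPM in TNF replicates 2 and 3 (2.11). Vldlr, a lipoprotein receptor, and Pmaip1, which encodes the pro-apoptotic protein NOXA, rose as well (1.06 and 1.48).

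The PBS group was itself not uniform, and not in this branch alone. Its libraries had a median deviation from the PBS mean of 0.34, -0.06 and -0.33 over the ATF4 and CHOP targets in replicates 1 to 3. The values were 0.31, 0.10 and -0.39 over the IRE1 branch and 0.30, -0.24 and -0.08 over the XBP1 targets. For the ATF6 targets they were 0.35, -0.20 and -0.13, whereas the eIF2 control genes were more even (0.06, 0.02 and -0.01). Slc7a11, the cystine carrier, had 8.30, 16.1 and 2.65 CPM, and Ddit4 had 121, 84.2 and 47.0 CPM, so that PBS replicate 3 was lowest in both, as in Chac1 and Trib3. With all libraries the edgeR adjusted p was 0.440 for Slc7a11 and 0.909 for Ddit4. For Slc7a11 it was 0.0397 by limma-voom with sample weights and ranged from 0.00692 to 0.919 over all settings, and for Ddit4 it ranged from 0.162 to 0.995.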
